A study of Homo sapiens with 4 samples.

Results

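The hepatocyte lineage transcription factors examined here were 8 genes: HNF4A, FOXA1, FOXA2, FOXA3, CEBPA, NR1H4, NR5A2 and NR0B2. They were chosen by name, as the rows of the count files that carry these symbols, and all 8 were among the 16370 genes listed with at least 1 count. Their transcripts were counted by RNA sequencing in 4 cultures of human liver tumor cells. The group of hepatic cancer cells (HCC) holds Hep3B and Huh7, which are long-established hepatoma lines. The group of hepatic cancer stem cells (HCSC) holds their stem-like derivatives, Hep3B-C from Hep3B and Huh7-C from Huh7. The labels gave no treatment, time point or genetic change for any culture, and each line was represented by 1 library, so that each HCSC line differed from its parental line by the culture and by the library at once. These cannot be told apart, and neither can a change of RNA per cell from a change in the share of cells that express a gene.

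A few conserved transcription factors hold the hepatocyte program in place. FOXA1, FOXA2 and FOXA3 are forkhead proteins that open liver enhancers during development, HNF4A is a nuclear receptor that binds the promoters of a large share of liver genes, and CEBPA is a leucine zipper factor of differentiated, non-dividing hepatocytes. NR1H4 (FXR) is the bile acid receptor, NR5A2 (LRH-1) is an orphan receptor needed for bile acid synthesis genes, and NR0B2 (SHP) is a receptor without a DNA-binding domain that FXR induces and that represses NR5A2 and HNF4A. In the gene annotation deposited with the counts, 4 of the 8 genes carried the term steroid hormone receptor activity and 2 of 8, NR1H4 and NR5A2, carried bile acid metabolic process.

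The question asked of each pair was which of these factors rose or fell from the parental line to its HCSC line. Levels are given as CPM, the count of a gene scaled to a total of 1000000 counts on genes. A gene was called up- or down-regulated at a false discovery rate (FDR, Benjamini-Hochberg over all genes of the pair) of 0.01 or below together with a log2 fold-change (HCSC/HCC) of at least 1 in either direction, by the Audic-Claverie test of a pair of read counts. This test compares 2 libraries and covers sampling of reads only, with no replicate check. In Hep3B-C, 1 factor was up-regulated (FOXA3) and 3 were down-regulated (FOXA1, NR1H4 and NR5A2), where 13.2% of all genes were called up and 30.4% were called down. In Huh7-C, 0 factors were up-regulated and 3 were down-regulated (CEBPA, NR1H4 and NR0B2), where 4.19% of all genes were called up and 4.15% down. With this scaling NR1H4 was the 1 factor called in the same direction in both pairs. With the GC and length trends described below removed, 3 factors were called down in both (CEBPA, NR1H4 and NR0B2). When TMM scaling, also described below, was added to that removal, NR1H4 alone was, a setting chosen after the data had been seen. With an assumed biological coefficient of variation of 0.2 between replicate cultures 0 were, since NR1H4 was no longer called in Huh7-C. The share of all genes called alike in both pairs was not computed, so these counts are description only. At an assumed coefficient of 0.4, NR1H4 was the 1 call left in Hep3B-C, where 0.401% of all genes were still called up and 1.09% down, and 0 calls were left in Huh7-C, where 0.0878% and 0.081% were. The median log2 fold-change of the 8 factors was 0.30 in Hep3B-C, where the median gene with at least 20 counts stood at -0.55, and -0.67 in Huh7-C, where the median gene stood at 0.06. In Hep3B-C this median turned to -0.21 with the length trend removed (median gene -0.58) and to -1.22, below the median gene at -0.46, with both trends removed.

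The total count on genes ran from 2896418 in Hep3B to 4641927 in Hep3B-C, so that 3 counts, taken as the smallest level to be read, were worth 0.646 to 1.04 CPM. The Hep3B pair stood apart from the Huh7 pair in 2 respects that touch every value below. Scaling by TMM, which sets the bulk of genes to no change, raised all log2 fold-changes of Hep3B-C by 0.60 and lowered those of Huh7-C by 0.04. Fold-changes of the Hep3B pair also moved with the GC content of the transcript and with gene length (Spearman across 11338 genes 0.63 and -0.43). In the Huh7 pair these coefficients were -0.06 and 0.32 across 11060 genes, and genes are not independent replicates. The Huh7 pair thus also had a trend with length, in the opposite direction. Smooth trends with GC content and length were therefore removed as an alternative, and the value after removal is given beside each factor of the Hep3B pair. In Huh7-C the removal moved NR1H4 from -1.52 to -1.37, NR5A2 from -0.76 to -0.93 and NR0B2 from -3.32 to -3.05, and the calls of the factors stayed the same. Under that alternative 4.51% of all genes were called up in Hep3B-C and 23.2% down, and 3.45% and 3.69% in Huh7-C, which are the shares to set beside every count below that is given without the trends. Whether the trends arose in the cells or in the libraries was not tested.

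**Figure D1:**
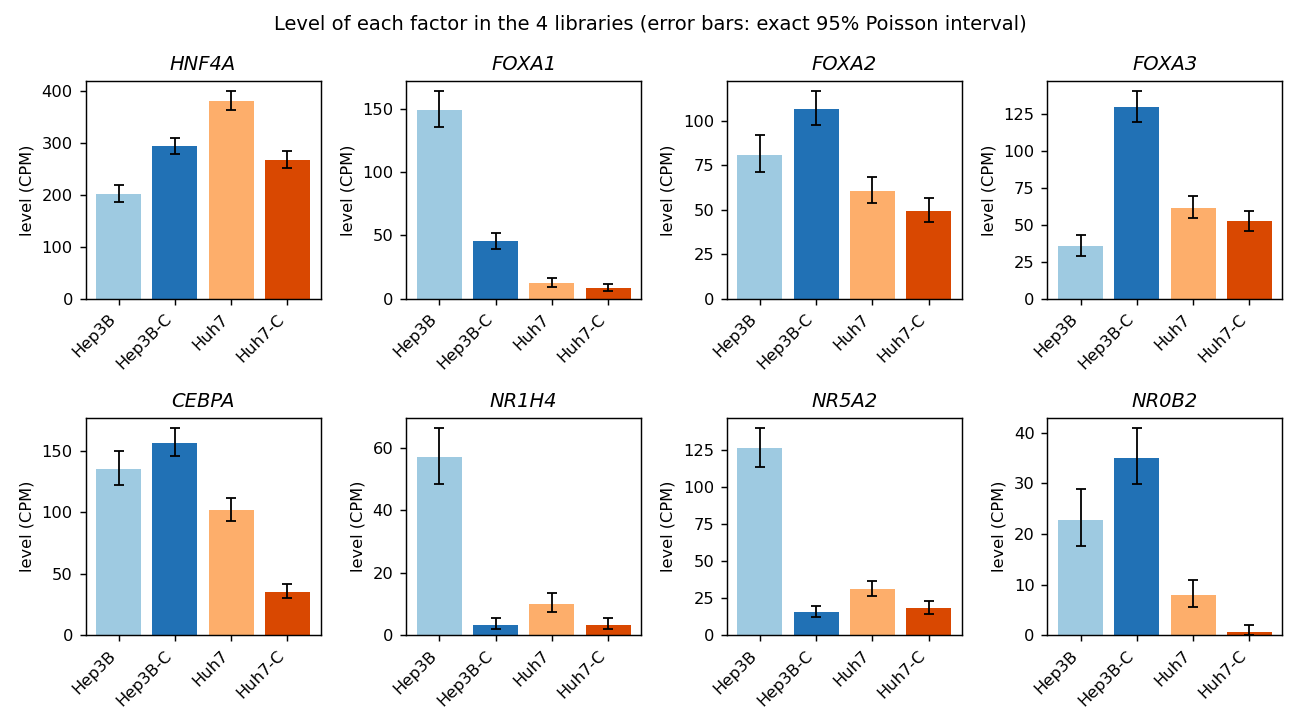
Level of each factor (CPM, vertical axis, 1 panel per gene) in the 4 libraries, with bars at the measured value and exact 95% Poisson intervals, which cover counting only. NR1H4 and NR5A2 were highest in Hep3B and low in both HCSC lines, FOXA1 was low in both Huh7-derived lines, and NR0B2 was close to 0 in Huh7-C.

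The bile acid receptor NR1H4 was the factor with the deepest fall in Hep3B-C. It stood at 57.0 CPM in Hep3B (165 counts), 3.45 CPM in Hep3B-C (16 counts), 10.1 CPM in Huh7 (46 counts) and 3.46 CPM in Huh7-C (15 counts). Both HCSC lines were below both HCC lines. With total-count scaling, the only scaling used for such orders, 2 of the 8 factors, NR1H4 and NR5A2, were lower in both HCSC lines than in either HCC line. This arrangement was seen in 14.4% of all genes. Of the 8 factors 0 were higher in both, as 8.54% of all genes were. The ratio of Hep3B to Hep3B-C was 16.5-fold for NR1H4 (exact 95% interval 9.88 to 29.6, counting error only), with a log2 fold-change of -4.01 (SE 0.37, FDR 4.2e-49), and -3.45 after the GC and length trends were removed. The ratio of Huh7 to Huh7-C was 2.93-fold (1.61 to 5.65), with a log2 fold-change of -1.52 (SE 0.42, FDR 0.00059). NR1H4 started 5.62-fold higher in Hep3B than in Huh7, and the levels of the HCSC lines lay so close that their difference did not pass the test (FDR 1).

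NR5A2, which drives bile acid synthesis genes, had a similar pattern. It stood at 126 CPM in Hep3B (366 counts), 15.7 CPM in Hep3B-C (73), 31.3 CPM in Huh7 (142) and 18.5 CPM in Huh7-C (80). With total-count scaling Hep3B was thus far above the other 3 lines, and the HCSC lines were again the lowest. No other scaling was run for this order. The fall in Hep3B-C was 8.04-fold (6.24 to 10.5), with a log2 fold-change of -2.998 (SE 0.18, FDR 2.7e-82), or -1.69 after removal of the trends. In Huh7-C the log2 fold-change was -0.76 (SE 0.20, FDR 0.0006), which passed the FDR and missed the 2-fold limit.

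With total-count scaling NR1H4 and NR5A2 fell most in Hep3B-C (FOXA1, at -1.87, passed NR5A2 once both trends were removed), and their transcripts had the lowest GC content of the 8, at 41.3% and 40.0%, against 51.3% to 65.9% in the others. By total count, NR1H4 and NR5A2 were also the factors that were lower in both HCSC lines than in either HCC line. For that reason the stretches of 250 bases before their annotated start sites are shown. They come from the RefSeq promoter table (GRCh38.p14), which held 8 start sites of 6 of the 8 factors, and carry the letters of the plus strand of chromosome 12 and of chromosome 1. NR5A2 has another start site upstream, whose window overlaps annotated exons and is not shown, and which holds 1 match, to the hexamer AGGTCA. The annotated NR1H4 gene also begins upstream of its window, at position 100473708 of chromosome 12, where no window was held. Both windows shown lie outside annotated exons. Capitals mark matches, on either strand, to 1 of 7 motifs: TGTTTAC and TGTTTGC (FOXA), AGGTCA (the hexamer bound by nuclear receptors), CAAGGTCA (NR5A2, which holds AGGTCA), CAAAGTCCA (HNF4A), GTTAATNAT (HNF1) and TTGCGCAA (C/EBP).
NR1H4, chr12:100503110-100503359: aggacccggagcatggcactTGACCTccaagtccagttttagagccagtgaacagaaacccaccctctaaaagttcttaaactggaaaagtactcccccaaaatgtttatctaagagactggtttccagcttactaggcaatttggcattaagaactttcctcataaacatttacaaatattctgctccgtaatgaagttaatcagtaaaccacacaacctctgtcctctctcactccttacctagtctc
NR5A2, chr1:200042341-200042590: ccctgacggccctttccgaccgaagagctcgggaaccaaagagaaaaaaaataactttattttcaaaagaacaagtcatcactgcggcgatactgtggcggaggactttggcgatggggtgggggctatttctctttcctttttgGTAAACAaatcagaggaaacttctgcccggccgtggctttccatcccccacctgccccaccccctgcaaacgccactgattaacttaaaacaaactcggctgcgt
The NR1H4 window had a GC content of 42.0% and 1 match, the nuclear receptor hexamer on the minus strand, which 3 of the 8 windows of the factors and 12.1% of 35116 promoter windows of the same length hold. The NR5A2 window had a GC content of 50.8% and 1 match, to the FOXA motif TGTTTAC on the minus strand, which 2.98% of windows hold. The median GC content over all windows was 58.0%. A match is a run of letters and no measurement of binding.

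NR0B2, the repressor that lacks a DNA-binding domain, was down-regulated in Huh7-C, and its call in Hep3B-C depended on the scaling. It stood at 22.8 CPM in Hep3B (66 counts), 35.1 CPM in Hep3B-C (163), 7.93 CPM in Huh7 (36) and 0.692 CPM in Huh7-C (3). The Huh7-C level was that of 3 counts, the smallest level to be read. The ratio of Huh7 to Huh7-C was 11.5-fold (exact 95% interval 3.62 to 58.2), with a log2 fold-change of -3.32 (SE 0.81, FDR 3.4e-07). In Hep3B-C the log2 fold-change was 0.62 (SE 0.21, FDR 0.0054), below the 2-fold limit. It was called up with TMM (1.21) and with DESeq2 size factors (1.298), was called down after removal of both trends (-1.10), and stood at -0.36, not called, after removal of the length trend alone. Of the 8 transcripts that of NR0B2 is the shortest, at 1270 bases.

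HNF4A was the most abundant factor per length in all 4 lines. It stood at 202 CPM in Hep3B (585 counts), 293 CPM in Hep3B-C (1362), 380 CPM in Huh7 (1726) and 267 CPM in Huh7-C (1159). The HCSC lines lay between the HCC lines. The log2 fold-change was 0.54 in Hep3B-C (SE 0.07, FDR 5.4e-14), which turned to -0.31 after removal of the trends, and -0.51 in Huh7-C (SE 0.05, FDR 1.7e-19). Both missed the 2-fold limit. The level of Hep3B-C was 1.10-fold that of Huh7-C, which did not pass the FDR (0.04).

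A single count per gene covers all HNF4A transcripts, although the gene has separate start sites with different first exons. The windows before the upstream and the downstream start site listed in RefSeq (GRCh38.p14, plus strand of chromosome 20) are shown because the counts could not be divided between them. No capitals appear, since neither window holds 1 of the 7 motifs.
HNF4A upstream start, chr20:44355449-44355698: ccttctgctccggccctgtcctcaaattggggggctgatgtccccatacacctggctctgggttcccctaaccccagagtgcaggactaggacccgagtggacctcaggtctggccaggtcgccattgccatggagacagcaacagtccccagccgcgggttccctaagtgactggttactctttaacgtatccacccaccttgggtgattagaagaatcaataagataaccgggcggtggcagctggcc
HNF4A downstream start, chr20:44400989-44401238: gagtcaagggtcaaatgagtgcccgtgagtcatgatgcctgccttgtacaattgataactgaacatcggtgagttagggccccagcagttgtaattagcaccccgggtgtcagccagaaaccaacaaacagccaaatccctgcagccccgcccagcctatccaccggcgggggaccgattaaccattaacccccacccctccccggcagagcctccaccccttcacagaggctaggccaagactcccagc
GC content was 58.4% in the upstream window and 58.0% in the downstream window, and both lie outside annotated exons.

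The FOXA genes did not change together. FOXA1 stood at 149 CPM in Hep3B (431 counts), 45.5 CPM in Hep3B-C (211), 12.6 CPM in Huh7 (57) and 8.31 CPM in Huh7-C (36). The 2 Hep3B-derived lines were both above the 2 Huh7-derived lines, so HCC and HCSC overlapped. FOXA1 fell 3.27-fold in Hep3B-C (2.77 to 3.88), with a log2 fold-change of -1.71 (SE 0.12, FDR 7.7e-48), and -1.87 without the trends. In Huh7-C the log2 fold-change was -0.59 (SE 0.31, FDR 0.12), and the interval of the ratio HCSC/HCC ran from 0.423 to 1.02.

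FOXA3 was up-regulated in Hep3B-C with total-count scaling. It stood at 35.6 CPM in Hep3B (103 counts), 129 CPM in Hep3B-C (601), 61.7 CPM in Huh7 (280) and 52.4 CPM in Huh7-C (227). Hep3B was the lowest line and Hep3B-C the highest. The rise was 3.64-fold (2.95 to 4.53), with a log2 fold-change of 1.86 (SE 0.15, FDR 1.0e-42), and fell to 0.33, no longer a call, when both trends were removed. In Huh7-C the log2 fold-change was -0.24 (SE 0.13, FDR 0.15).

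FOXA2 was not called in either pair. Its levels were 81.1 CPM in Hep3B (235 counts), 107 CPM in Hep3B-C (496), 60.8 CPM in Huh7 (276) and 49.4 CPM in Huh7-C (214). The log2 fold-change was 0.40 in Hep3B-C (SE 0.11, FDR 0.00097), which turned to -0.78 without the trends, and -0.30 in Huh7-C (SE 0.13, FDR 0.062).

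Read per length, as RPKM (CPM divided by the gene length in kilobases), the make-up of the FOXA family differed between the lines. FOXA1 supplied 48.2% of the summed FOXA level in Hep3B, 11.8% in Hep3B-C, and 6.71% and 5.41% in Huh7 and Huh7-C. FOXA3 supplied 18.0% in Hep3B and 52.6%, 51.6% and 53.3% in the same order of the other lines. FOXA2 ranged from 33.8% to 41.7%. Hep3B was thus the line in which FOXA1 was the leading FOXA gene, and in the other 3 lines FOXA3 was. The shares of the Hep3B pair carry the GC and length trends described above, and no replicate stands behind them. Among the 4 nuclear receptors HNF4A supplied 47.3% of the summed RPKM in Hep3B, 73.7% in Hep3B-C, and 87.2% and 93.4% in Huh7 and Huh7-C.

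**Figure D2:**
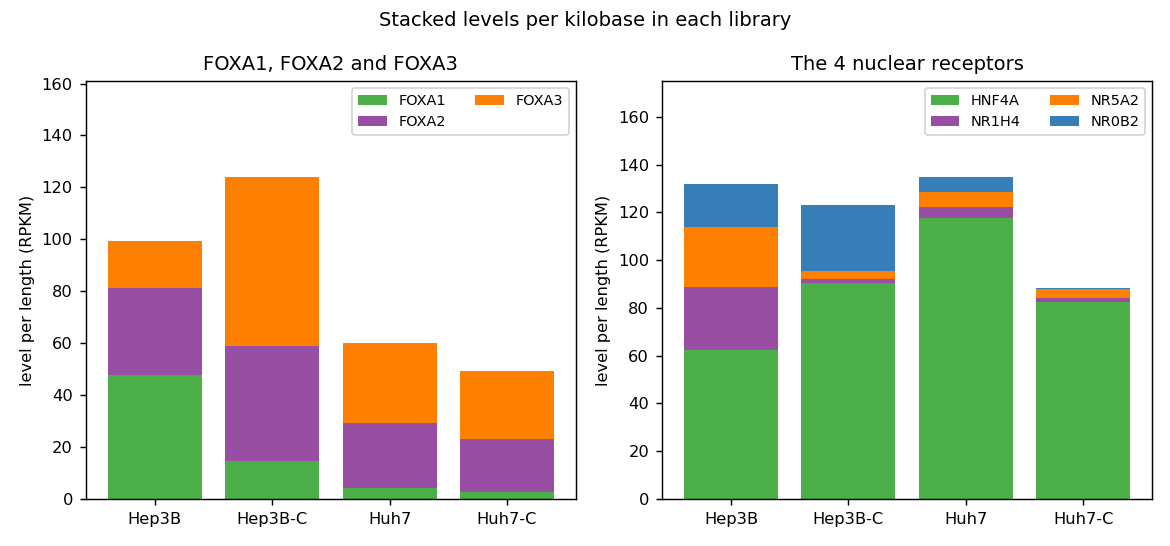
Stacked levels per length (RPKM, vertical axis) of the FOXA genes (left) and of HNF4A, NR1H4, NR5A2 and NR0B2 (right) in the 4 libraries, with 1 library per bar and no error. The summed FOXA level was 99.2 RPKM in Hep3B, 124 in Hep3B-C, and 60.2 and 49.4 in Huh7 and Huh7-C, and the FOXA1 part shrank from Hep3B to the other lines.

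CEBPA was the remaining call in Huh7-C. It stood at 135 CPM in Hep3B (392 counts), 157 CPM in Hep3B-C (727), 102 CPM in Huh7 (462) and 35.5 CPM in Huh7-C (154). Huh7-C was well below the other 3 lines. CEBPA fell 2.87-fold in Huh7-C (2.38 to 3.46), with a log2 fold-change of -1.52 (SE 0.13, FDR 2.7e-32), and stood at -1.53 without the trends. In Hep3B-C the log2 fold-change was 0.21 (SE 0.09, FDR 0.033), which turned to -1.33 and became a call when both trends were removed. CEBPA had the highest GC content of the 8 transcripts, at 65.9%.

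**Figure D3:**
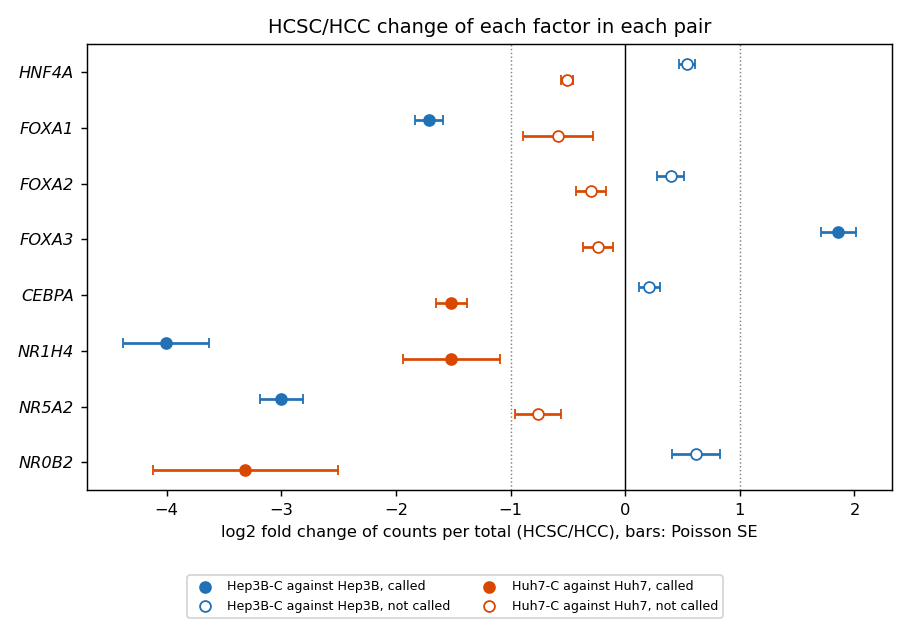
Log2 fold-change (HCSC/HCC, horizontal axis) of each factor in the Hep3B pair (blue) and the Huh7 pair (orange), with Poisson standard errors, filled where called and open where not, with dotted lines at the 2-fold limit. NR1H4 lies left of the limit in both pairs, and HNF4A, FOXA2, FOXA3, CEBPA and NR0B2 lie on opposite sides of 0, an arrangement that held for FOXA3 alone when GC and length trends were removed.

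Ordered by level, each factor gives 3 neighbouring pairs of lines, and 17 of these 24 differences passed the FDR over 16370 genes by the same read test, with no fold limit. Among all genes, 24.6% passed between Huh7 and Huh7-C, 53.5% between Hep3B and Hep3B-C and 45.2% between the HCSC lines. The share was 55.4% between Hep3B and Huh7, 53.9% between Hep3B and Huh7-C and 46.3% between Hep3B-C and Huh7. These shares are for fixed pairs of lines, and the share of neighbours that pass was not computed for all genes. Of the 7 neighbouring differences of factors that did not pass, 3 lay between Huh7 and Huh7-C (FOXA1, FOXA2 and FOXA3). Another 3 lay between Hep3B-C and Huh7-C (HNF4A, NR1H4 and NR5A2) and 1 between Hep3B and Hep3B-C (CEBPA).

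The change from HCC to HCSC was next compared between the pairs, by an exact conditional test of the ratio of ratios with FDR over the 13917 genes in both. Like the test within a pair, it covers sampling of reads only, so any difference is between single libraries. All 8 factors differed, where 48.9% of all genes did. With total-count scaling NR0B2 had the widest difference, at 3.93 (SE 0.83, FDR 4.4e-09) for the log2 fold-change of the Hep3B pair minus that of the Huh7 pair. The share of all genes was computed with total-count scaling only. When GC and length trends were removed, 3 of the 8 differences remained past the FDR. These were NR1H4 at -2.08, then the widest of the 8 as it also was with the length trend alone removed (-3.15), FOXA1 at -1.35 and FOXA2, whose sign turned to -0.60.

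**Figure D4:**
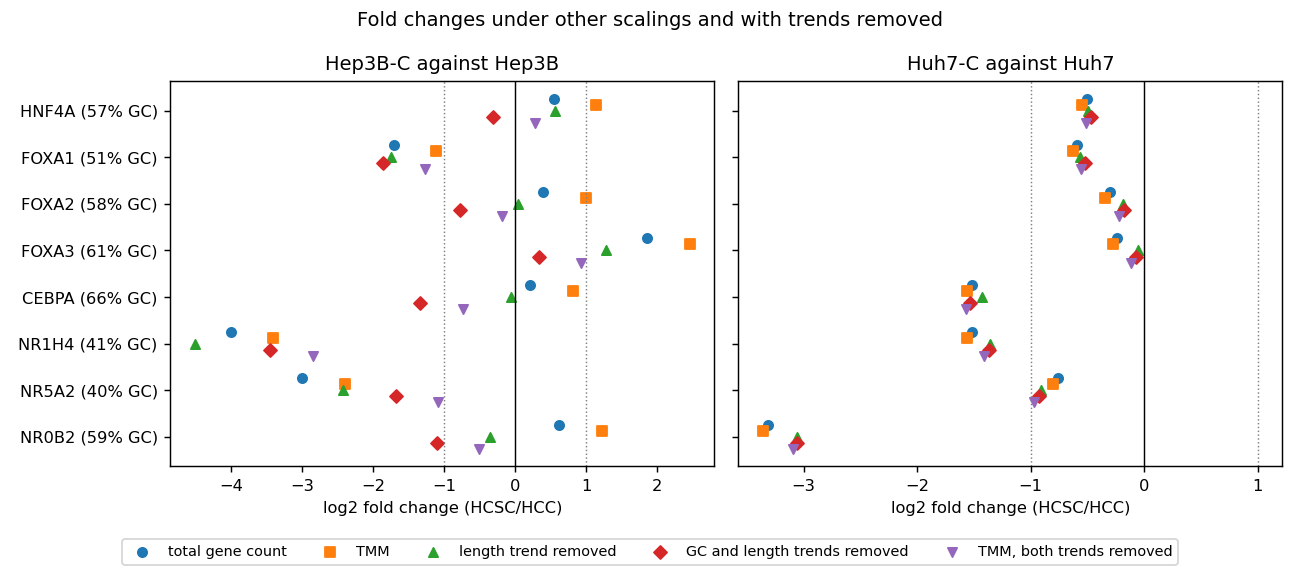
Log2 fold-change (HCSC/HCC, horizontal axis) of each factor in the Hep3B pair (left) and the Huh7 pair (right) with 5 ways of scaling, each a symbol, with the GC content of the transcript beside the name. In the Hep3B pair the values of CEBPA ran from 0.81 with TMM to -1.33 with both trends removed, while the symbols of the Huh7 pair stay close together.

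Over both pairs at once, HCSC and HCC were compared with edgeR's quasi-likelihood test with the parental line as a block. By this test 0 of the 8 factors were called at an FDR of 0.01, where 0.0257% of all genes were. NR1H4 alone had an unadjusted p under 0.05, with a log2 fold-change of -2.64 (edgeR, adjusted p = 0.92). DESeq2 also called 0, and had 2 of the 8 at an unadjusted p under 0.05. In the same edgeR fit the Huh7-derived lines were compared with the Hep3B-derived lines, where 6.06% of genes passed the FDR and 0 of the 8 factors did. The fitted log2 difference (Huh7-derived over Hep3B-derived) was -3.03 for FOXA1 and -3.27 for NR0B2 (edgeR, adjusted p = 0.014 and 0.032), the 2 factors with an unadjusted p under 0.05. No share of all genes was set beside the counts of factors at an unadjusted p under 0.05, which are description only. Only 1 residual degree of freedom stands behind the edgeR fit.

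Genes that work with these factors were read from lists. Every list count below that keeps the trends is to be read against the calls among all genes. For the Hep3B pair these shares were 13.2% up and 30.4% down. For the Huh7 pair they were 4.19% up and 4.15% down. Of 26 partner factors (other liver transcription factors and receptors), 2 were called up and 13 down in Hep3B-C, with a median log2 fold-change of -1.32 over the 24 with at least 20 counts (-0.72 with TMM and -1.20 without the trends). In Huh7-C 1 was called up and 2 down of 25, with a median of -0.15 over 22. CREB3L3, a membrane-bound liver factor of the fasting response, was down in both, from 146 to 53.2 CPM in the Hep3B pair (log2 fold-change -1.46, SE 0.12, or -0.86 with TMM and -2.69 without the trends) and from 303 to 86.1 CPM in the Huh7 pair (-1.82, SE 0.08). The leading rise in Hep3B-C was CEBPB, the C/EBP factor of the acute-phase response, at 1.71 (SE 0.30), and it turned to -0.11 without the trends. The leading fall there was RORA, an orphan receptor, from 118 to 5 counts (-5.11, SE 0.63, and -3.09 without the trends). In Huh7-C, NR2F1 (COUP-TFI) rose from 0 to 19 counts, at least 6.63-fold against the level of 3 counts, and NR1I3 (CAR) fell from 19 to 0, at least 6.05-fold. Without the trends 0 partner factors were up and 14 down in Hep3B-C.

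Coregulators are the proteins that receptors recruit to activate or silence genes. In Hep3B-C 1 of 14 was called up and 9 down (median -1.49, but -0.90 with TMM and -0.29 without the trends), and in Huh7-C 3 were called up and 1 down (median 0.75). PPARGC1A (PGC-1alpha), a coactivator of HNF4A and NR1H4 in fasting liver, was down in both. It fell from 37.6 to 2.37 CPM in the Hep3B pair, 15.9-fold (8.53 to 32.8; log2 fold-change -3.93, SE 0.45, and -2.49 without the trends), and from 127 to 0 counts in the Huh7 pair, at least 40.4-fold. GPS2, a corepressor subunit, was the rise in Hep3B-C (1.20, SE 0.11), which turned to -0.21 without the trends. The leading called rise in Huh7-C was PPARGC1B, a paralog of PPARGC1A, at 1.81 (SE 0.48). With the trends removed, 0 coregulators were up and 5 down in Hep3B-C, and 2 were up and 1 down in Huh7-C.

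Bile acid genes, among which are known targets of NR1H4, NR5A2 and NR0B2, changed in both directions. Of 22 measured in the Hep3B pair 6 were called up and 5 down, and of 19 in the Huh7 pair 0 were up and 3 down. HSD3B7, an enzyme of bile acid synthesis, was up in Hep3B-C, from 42.1 to 353 CPM (3.06, SE 0.14, and 1.57 without the trends), and down in Huh7-C, from 73.4 to 32.5 CPM (-1.17, SE 0.14). AKR1D1, which reduces the steroid ring, fell from 60 to 3 counts in Hep3B-C, 32.1-fold (10.5 to 160), with a log2 fold-change of -4.79 (SE 0.79, and -4.10 without the trends). BAAT, which conjugates bile acids, fell from 75 counts to 1 in Huh7-C, 71.6-fold (12.5 to 2867). That 1 count lies below the 3 counts taken as the smallest level to be read, so the size of this fall is uncertain. CYP7A1, the rate-limiting enzyme of the classical route, had 0 counts in Hep3B, Huh7 and Huh7-C and 1 in Hep3B-C. Without the trends 2 were up and 4 down in Hep3B-C, and 0 up and 3 down in Huh7-C.

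**Figure D5:**
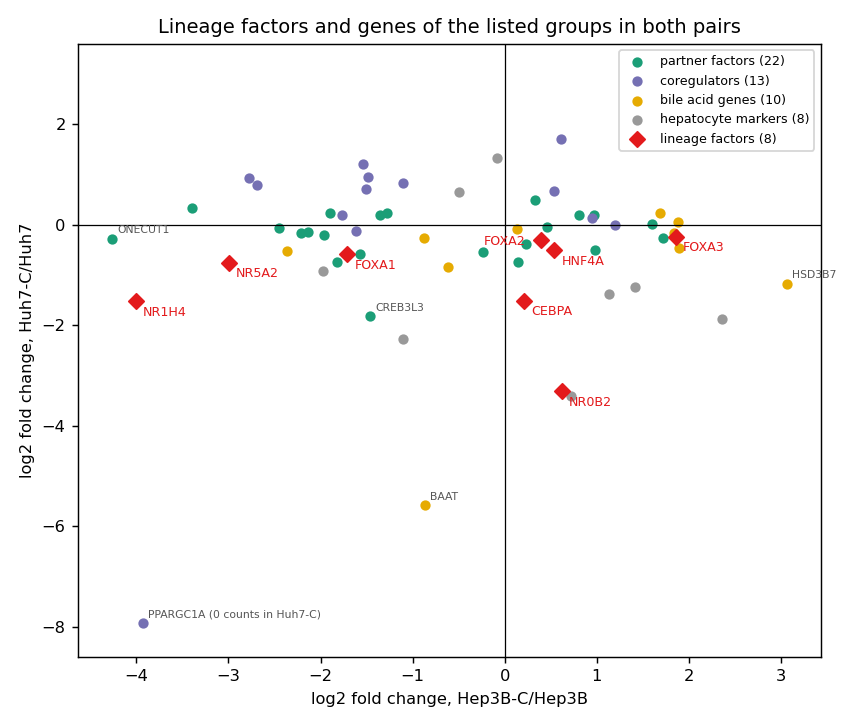
Log2 fold-change in the Hep3B pair (horizontal axis) and the Huh7 pair (vertical axis) of the 8 factors (red diamonds) and of genes of 4 lists with at least 20 counts in 1 library of each pair (22 partner factors, 13 coregulators, 10 bile acid genes, 8 hepatocyte markers), scaled by total count. NR1H4, PPARGC1A and CREB3L3 lie in the lower left, and the position of PPARGC1A depends on the 0.5 added to its 0 counts in Huh7-C.

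Markers of hepatocytes had counts in all 4 lines, and their summed level was 62168 CPM in Hep3B, 80783 in Hep3B-C, and 52429 and 27111 in Huh7 and Huh7-C. SERPINA1 alone made up most of the sum in the Huh7 pair, at 40517 CPM in Huh7 and 17284 in Huh7-C. Its level was 10113 CPM in Hep3B and 26906 in Hep3B-C. ALB stood at 19541 CPM in Hep3B and 18469 in Hep3B-C, but at 106 in Huh7 and 267 in Huh7-C. TTR had 13 counts in Huh7 and 13 in Huh7-C. In Hep3B-C 4 of 9 were called up and 2 down (1 up and 2 down without the trends), and in Huh7-C 1 was up and 5 down. TF was down in both pairs (-1.11, SE 0.02, and -2.28, SE 0.04), though in Hep3B-C it stood at -0.51 with TMM and -2.10 without the trends. The leading rises were APOA1 in Hep3B-C (2.36, SE 0.04, and 0.18 without the trends) and ALB in Huh7-C (1.33, SE 0.08), and the leading falls were FGB in Hep3B-C (-1.97, SE 0.16, and -1.49 without the trends) and AHSG in Huh7-C (-3.40, SE 0.06).

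Markers of other cell types moved with the same comparisons. The summed level of 6 cholangiocyte markers was 282 CPM in Hep3B and 125 in Hep3B-C, with KRT19 the leading fall (-1.94, SE 0.18, and -3.75 without the trends) and SPP1 the rise (3 to 137 counts), and 61.0 CPM in Huh7 and 111 in Huh7-C, with CFTR rising from 0 to 80 counts, at least 27.9-fold. KRT7 had 0 to 2 counts in every line. Of 5 intestinal markers listed, 2 were up in Hep3B-C, led by TFF3 (0 to 34 counts, at least 7.07-fold), but 0 were up and 1 was down there without the trends, and 0 were called in Huh7-C. Of the fibroblast markers COL1A2 fell from 6 to 0 counts in Hep3B-C, COL3A1 rose from 0 to 58 counts in Huh7-C, at least 20.2-fold, and PDGFRB fell from 186 to 2, while summed levels of the list were 10.8 to 45.2 CPM. Blood and endothelial markers summed to 0.22 to 21.5 CPM, led by PECAM1 in Huh7-C (93 counts), and HBA1 was also called up there (20 counts). Of 10 housekeeping genes 3 were up in Hep3B-C, led by GAPDH (1.66, SE 0.01, and 0.22 without the trends), and HPRT1 was down (-1.50, SE 0.29, and -1.19 without the trends), with 0 called in Huh7-C. The part of any of these in the factors' changes was not tested.

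The genes whose levels over the 4 libraries ran most like those of each factor were found by the distance of centred log2(CPM + 1) profiles among 7724 genes, for the 6 factors with enough counts. NR2C1 was nearest to NR5A2 (distance 0.10), at 73.9, 9.69, 18.1 and 11.1 CPM in Hep3B, Hep3B-C, Huh7 and Huh7-C, followed by BNIP3L (0.23). OSGEP (0.05) and PRAF2 (0.15) were nearest to FOXA3, and MRPS11 (0.06) and FUCA2 (0.11) to HNF4A. TPCN2 (0.09) and P4HB (0.11) were nearest to FOXA2, APOC1 (0.28) and CMTM3 (0.34) to CEBPA, and ITGA1 (0.36) and PROM1 (0.43) to FOXA1. With 4 points and many genes, near profiles are found for most patterns, so this is a description.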

How the data were processed

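Sequencing used an Illumina Genome Analyzer II. After filtering of adapters and poor reads, the authors aligned the rest to NCBI Build 36.1 with NextGENe, and deposited raw read counts for each gene. Gene annotation and handling of multiply mapped reads are not given in the sources used here, so counts of the related FOXA genes may share reads. A gene missing from a pair's files was taken as 0. CPM and RPKM were computed from the counts, the total gene count and the deposited gene length. Pairs were compared with the Audic-Claverie test, with 0.5 added to each count for fold-changes. All 4 libraries were compared with edgeR 4.0.16 (TMM, filterByExpr, 11691 genes, parental line as block). The pairing comes from the parental line, and the deviations from the group mean correlated at 0.58 across genes between Hep3B and its HCSC line. With 1 library per line, joint p-values rest on how far the HCSC/HCC change differed between the pairs. They do not measure a spread between replicate cultures of a line. Alternatives were TMM and DESeq2 1.42.0 size factors, 5 added to each count, a minimum of 10 counts, an exact binomial test, an assumed biological coefficient of variation (BCV) of 0.2 or 0.4, RPKM with 0.001 for 0, removal of length or GC and length trends (mgcv 1.9.3), no block, no filter, DESeq2 and each library left out. GC content came from GENCODE 29 transcripts for 98.0% and 98.2% of genes. Scripts were tested on simulated data and run in Python 3.11.15 and R 4.3.3. Members and lists were chosen with earlier results of these data known. Named genes were the 8 members, list genes called alike in both pairs, the leading called rise and fall of each list in each pair with at least 20 counts, and the 2 nearest profiles of members with at least 50 counts in 1 library of each pair. Others, such as NR1I3, CYP7A1, KRT7, SOX9 and COL1A2, were named after their values were seen. Intervals cover counting error only.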

Additional observations from a re-analysis of the deposited data

Results flagged for a closer look

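The change from HCC to HCSC differed between the pairs of single libraries for each of the 8 factors by the exact conditional test. That test covers sampling of reads only, and 48.9% of all genes met the same rule. The log2 fold-change of the Hep3B pair minus that of the Huh7 pair was positive for HNF4A (1.05), FOXA2 (0.70), FOXA3 (2.09), CEBPA (1.73) and NR0B2 (3.93). It was negative for FOXA1 (-1.12), NR1H4 (-2.49) and NR5A2 (-2.24). With TMM 7 of 8 differences passed, FOXA1 being the exception at -0.48 (FDR 0.29), and with the length trend removed 7 of 8 passed, FOXA2 being the exception at 0.23 (FDR 0.31). With GC and length trends removed 3 passed, and HNF4A stood at 0.15 (FDR 0.17), CEBPA at 0.20 (FDR 0.38) and FOXA3 at 0.40 (FDR 0.099). NR5A2 at -0.76 (FDR 0.019) and NR0B2 at 1.95 (FDR 0.024) missed the limit of 0.01 under that setting. For TMM and for removal of trends the share of all genes that passed was not computed, so these counts of factors are description only.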

How the results depend on the processing

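In the Hep3B pair the count of 1 factor up and 3 down moved with the scaling. TMM gave 3 up (HNF4A, FOXA3 and NR0B2), DESeq2 size factors gave 4 up (those and FOXA2), and both kept 3 down, where 21.6% of all genes were up and 18.1% down with TMM and 22.9% and 16.5% with DESeq2 size factors. Removal of GC and length trends gave 0 up and 5 down (CEBPA and NR0B2 added; all genes 4.51% and 23.2%), and with TMM as well, chosen after the data had been seen, 0 up and 3 down (all genes 12.6% and 10.9%). An assumed BCV of 0.4 left 0 up and 1 down (NR1H4; all genes 0.401% and 1.09%). Under removal of both trends the sign turned for HNF4A (-0.31), FOXA2 (-0.78), CEBPA (-1.33) and NR0B2 (-1.10), and for FOXA2 in the difference between the pairs (-0.60), where 3 of 8 differences passed (share of all genes not computed). With TMM as well, FOXA2 (-0.19), CEBPA (-0.74) and NR0B2 (-0.51) stayed negative and HNF4A returned to 0.28. The length trend alone turned CEBPA (-0.065) and NR0B2 (-0.36). In the Huh7 pair 3 factors were down under every alternative run except an assumed BCV of 0.2 or 0.4. Under the alternatives that kept 3, the share of all genes called down was 3.67% to 5.16%. At a BCV of 0.2, 1 factor was down (NR0B2), where 1.09% of all genes were. At a BCV of 0.4, 0 were down, where 0.081% of all genes were. In the joint edgeR fit 0 factors were called with or without the replicate block, with DESeq2, without the filter, with total counts and with each library left out. Without the replicate block NR0B2 turned to 0.55, and no call changed. With 1 library left out (the lone sample of a group being assumed to vary like the other group) the joint log2 fold-change ran from -0.37 to 0.81 for HNF4A, -3.09 to 1.23 for FOXA1, -0.43 to 0.88 for FOXA2, -1.64 to 0.69 for CEBPA and -4.27 to 1.52 for NR0B2, with sign changes also at -0.085 for HNF4A (without Hep3B-C), 0.046 for CEBPA (without Hep3B) and 1.33 and 0.075 for NR0B2 (without Hep3B and without Huh7). NR1H4 stayed between -3.70 and -1.48. The cause of these shifts was not tested. No alternative was run for the order of the lines. Values of single factors recomputed under alternatives kept direction and call in 222, lost the call in 17, gained it in 5 and changed sign in 20. Depth limits NR0B2 in Huh7-C (3 counts) and NR1H4 in the HCSC lines (16 and 15 counts).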
